A study of Mus musculus with 6 samples.

Results

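The ribosome biogenesis factors examined here are 31 genes for nucleolar proteins that make and mature ribosomal RNA: subunits of RNA polymerase I, core proteins of the small nucleolar ribonucleoproteins (snoRNPs), and processing factors of the small and large ribosomal subunits. They were chosen by gene name, with earlier results of these data known, and MYC genes were left out. All 31 were found among the 17523 entries of the deposited count table, and all 31 had enough reads to be tested. RNA was sequenced from FACS-sorted bone marrow cells of C57BL/6 mice, described by the series as hematopoietic stem cells (HSCs), in 3 wild-type (WT) and 3 NHD13 mutant libraries. NHD13 cells express NUP98-HOXD13, a fusion of a nucleoporin with a homeobox transcription factor, and the strain is a mouse model of myelodysplastic syndrome. The sources used here do not state the sort markers, the promoter that drives the fusion, or the age and sex of the mice. Nothing in the labels says that replicates came from separate animals, so p-values measure only the spread between these libraries.

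Ribosome production starts in the nucleolus, where RNA polymerase I transcribes a long precursor of the ribosomal RNAs. Box C/D snoRNPs methylate this precursor and box H/ACA snoRNPs convert selected uridines to pseudouridine. Large assemblies, among them the small subunit processome and the PeBoW complex of Pes1, Bop1 and Wdr12, then cleave and fold it into the precursors of both subunits. Many of these genes are known targets of the transcription factor MYC, which binds the E box CACGTG. Defects in ribosome production are known from inherited marrow failure, and in myelodysplastic syndrome with a deletion on chromosome arm 5q from the loss of one copy of a ribosomal protein gene.

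The promoters below belong to the 3 factors with the lowest p-values among those with an entry in the RefSeq promoter table (build GRCm38.p6), and are shown because the E box was searched in them. Each runs 5′ to 3′ from 250 bases before the transcription start to 50 bases after it, in lower case, with CACGTG in capitals where it occurs. Rrp12, Bop1, Fbl and Npm1 have no entry.
Nop2, chr6:125131633-125131932, strand +: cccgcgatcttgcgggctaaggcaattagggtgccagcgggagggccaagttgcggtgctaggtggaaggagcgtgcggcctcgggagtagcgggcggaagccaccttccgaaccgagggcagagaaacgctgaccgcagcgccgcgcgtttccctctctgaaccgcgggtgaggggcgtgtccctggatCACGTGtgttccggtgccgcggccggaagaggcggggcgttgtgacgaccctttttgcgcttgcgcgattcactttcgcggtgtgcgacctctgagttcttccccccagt
Ddx21, chr10:62602249-62602548, strand -: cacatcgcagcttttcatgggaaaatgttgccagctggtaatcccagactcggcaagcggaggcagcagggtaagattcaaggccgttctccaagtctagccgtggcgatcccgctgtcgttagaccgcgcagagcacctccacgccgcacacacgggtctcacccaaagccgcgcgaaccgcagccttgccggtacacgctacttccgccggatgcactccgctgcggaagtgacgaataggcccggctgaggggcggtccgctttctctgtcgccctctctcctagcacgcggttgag
Rrp9, chr9:106477059-106477358, strand +: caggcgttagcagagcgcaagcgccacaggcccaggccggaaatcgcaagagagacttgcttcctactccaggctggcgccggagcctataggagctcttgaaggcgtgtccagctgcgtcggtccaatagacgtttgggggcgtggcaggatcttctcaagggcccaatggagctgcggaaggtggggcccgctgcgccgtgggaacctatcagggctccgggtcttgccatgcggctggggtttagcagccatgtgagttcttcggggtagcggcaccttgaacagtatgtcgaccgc

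CACGTG, a palindrome that reads alike on both strands, occurred in the promoters of 6 of the 27 factors with an entry, or 22.2%. These were Nop2, Mybbp1a, Wdr43, Utp20, Tsr1 and Pes1. In Nop2 its first base lay 60 bases before the start, and in the other 5 it lay 3 to 41 bases into the transcript. It occurred in 9.46% of 12509 promoters of genes with a row in the count table and in 7.24% of all 27025 promoters of this length, with median GC contents of 58.0% for the factors, 59.7% for genes in the table and 52.7% for all. Of the 6 factors with the motif, 5 rose in NHD13 with a median log2 change of 0.34 over the 6, and of the 21 without it 15 rose with a median of 0.36. The motif is a description of these letters and not a binding site.

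Total counts ran from 12541538 to 14388772 per library. Values are CPM, reads of a gene relative to the TMM-scaled library total, and values per library are listed for replicates 1, 2 and 3 in that order. The fusion had 0 counts in each WT library and 167 to 185 counts in each NHD13 library. Of 6 stem cell markers Kit was at 244 to 269 CPM in WT, Hlf at 13.4 to 16.4 CPM and Ly6a at 12.7 to 23.6 CPM, Mecom and Slamf1 were each under 2 CPM, and Procr had 14 counts over WT and 7 over NHD13. Against a pure stem cell population, 8 neutrophil genes summed to 32860 to 50780 CPM in WT and 22430 to 31130 CPM in NHD13. The libraries are therefore called sorted marrow cells. NHD13 replicate 1 stood apart. It held 319275 counts of Rn45s, or 2.36% of its total, against 0.0987% to 0.208% in the other 5 libraries. Rn45s is the row of the ribosomal RNA precursor, and its counts do not tell precursor from mature ribosomal RNA. The noncoding RNAs Rmrp and Rpph1 had 86 and 58 counts in this library, against 3 to 7 and 6 to 12 in the other 5. The cause was not tested. On the second principal component (12.3% of the variance) NHD13 replicate 1 lay at 28.2 against -14.1 to 8.67 for the others. In such bulk libraries a change in the share of a cell type and a change in RNA per cell cannot be told apart.

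Ribosome biogenesis factors were higher in NHD13, by small amounts and together. The log2 change of NHD13 over WT was above 0 for all 31, as it was for 50.1% of the 12013 genes tested. At an adjusted p under 0.05 (edgeR quasi-likelihood test, adjusted over all tested genes), 24 of 31 rose, where 15.0% of all tested genes did, and 0 fell, where 15.3% did. By DESeq2 24 rose, where 14.5% of all tested genes did, and 0 fell, where 1832 of 12013 did. All 31 had an unadjusted edgeR p under 0.05, each with a positive change. Such a p, in either direction, was common: 5177 of the 12013 tested genes had it. For 30 of 31 every NHD13 library lay above every WT library, against 23.5% of all tested genes. The fitted folds ran from 1.13 to 1.51, with a median log2 change of 0.34 beside 0.00 over all tested genes. So 0 factors reached a 2-fold change, and 13.5% of all tested genes had a larger log2 change than the median factor.

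Together the 31 genes took 0.768%, 0.692% and 0.748% of all counts in WT and 0.839%, 0.943% and 0.987% in NHD13. Every NHD13 share lay above every WT share, at a mean of 0.923% ± 0.0758 against 0.736% ± 0.0395 (SD, n = 3 each). Ncl and Npm1 are by far the most abundant of the 31, and without them the shares were 0.460%, 0.401% and 0.433% in WT and 0.508%, 0.549% and 0.582% in NHD13, so the groups were again apart. Set against the WT mean of each gene, the median factor stood at log2 values of 0.08, -0.09 and 0.01 in WT and of 0.28, 0.35 and 0.43 in NHD13. Within NHD13 the order was shared by most of the 31 genes, and how common it was among all tested genes was not counted. Replicate 1 was the lowest library for 25 of 31 and replicate 3 the highest for 26, and within WT replicate 1 was the highest for 24.

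**Figure D1:**
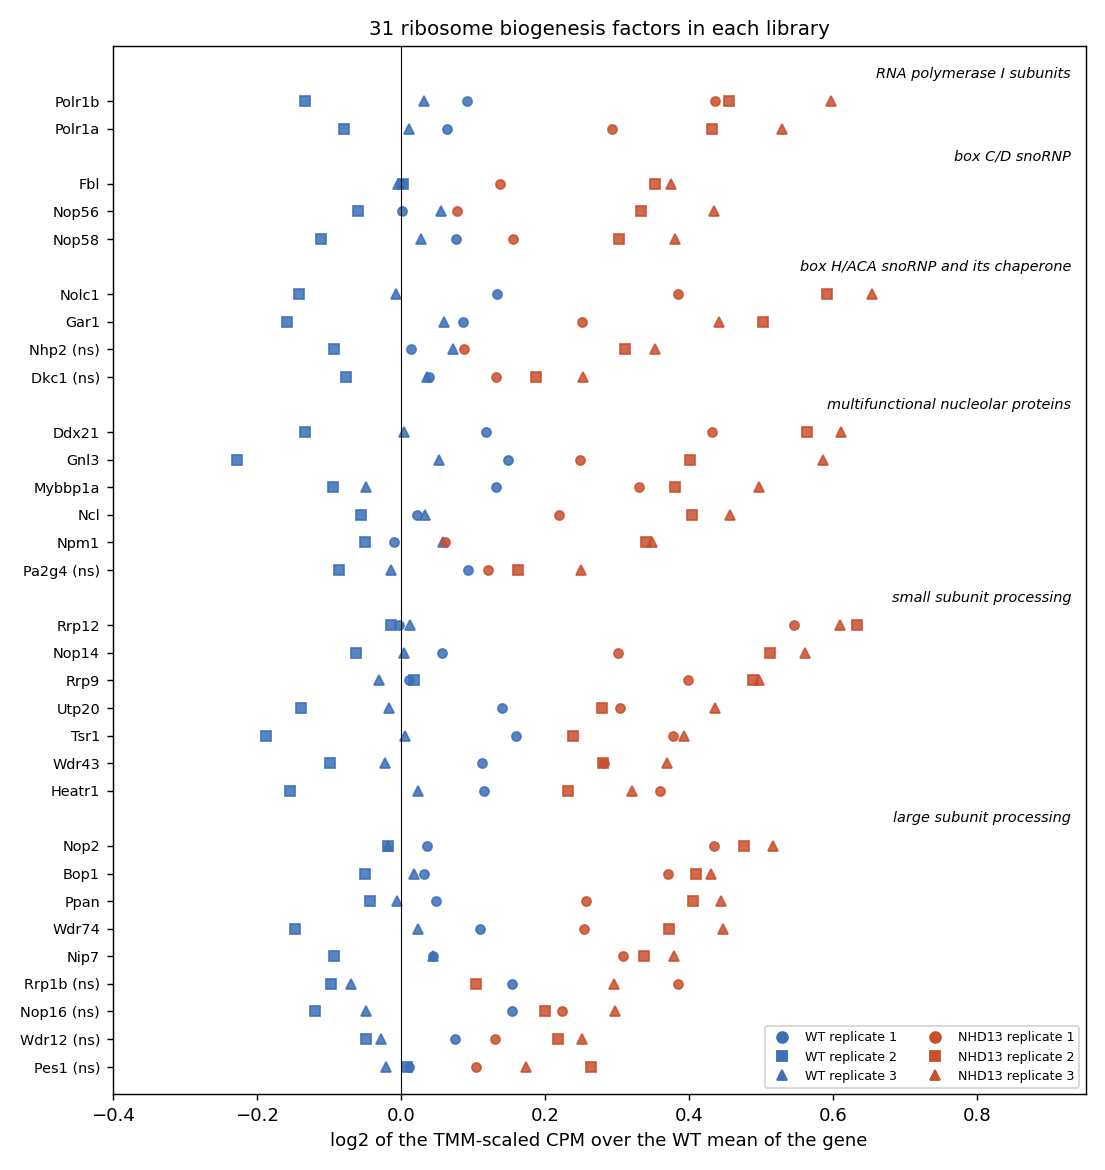
Log2 of the TMM-scaled CPM over the WT mean of each gene (x axis) for 31 ribosome biogenesis factors (rows, grouped by role), with 1 point per library, blue for WT and red for NHD13, and ns for factors not past the threshold. All NHD13 points lie to the right of all WT points for 30 of the 31 genes, and Rrp1b is the exception.

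The number of factors past the threshold depended on single libraries. Without replicate 2 it was 13 (WT) or 15 (NHD13), and without replicate 3 it was 14 (WT) or 13 (NHD13). Leaving out WT replicate 1 gave 22 and leaving out NHD13 replicate 1 gave 30, while replicates 2 and 3 of both groups alone gave 31. The share of all tested genes called higher moved too. It was 6.8% without WT replicate 2, 6.64% without WT replicate 3, 6.23% without NHD13 replicate 2 and 6.86% without NHD13 replicate 3. Without replicate 1 it was 9.88% (WT) or 24.5% (NHD13), and with replicates 2 and 3 of both groups alone 26.6%. In each of these fits all 31 log2 changes were above 0. For the 30 factors with groups apart this was largely fixed in advance, since any libraries left keep NHD13 above WT. Of the 24 factors that rose, 13 kept their call in all 6 fits that leave out 1 library. These were Rrp12, Nop2, Ddx21, Rrp9, Bop1, Polr1b, Nolc1, Nop14, Polr1a, Ppan, Mybbp1a, Nip7 and Ncl. How many of all genes called higher kept their call in this way was not counted. When the share of Y-linked counts was added to the fit, the median log2 change was 0.33, and the median standard error (SE) of a factor went from 0.0786 to 0.132. Only Rrp12 was then past the threshold (adjusted p = 0.0413, edgeR), and 0.924% of all tested genes were called higher. The Y-linked share was 0.0194%, 0.0109% and 0.0113% in WT and 0.0248%, 0.0280% and 0.0177% in NHD13, and 57.9% of its variance lay between the groups.

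**Figure D2:**
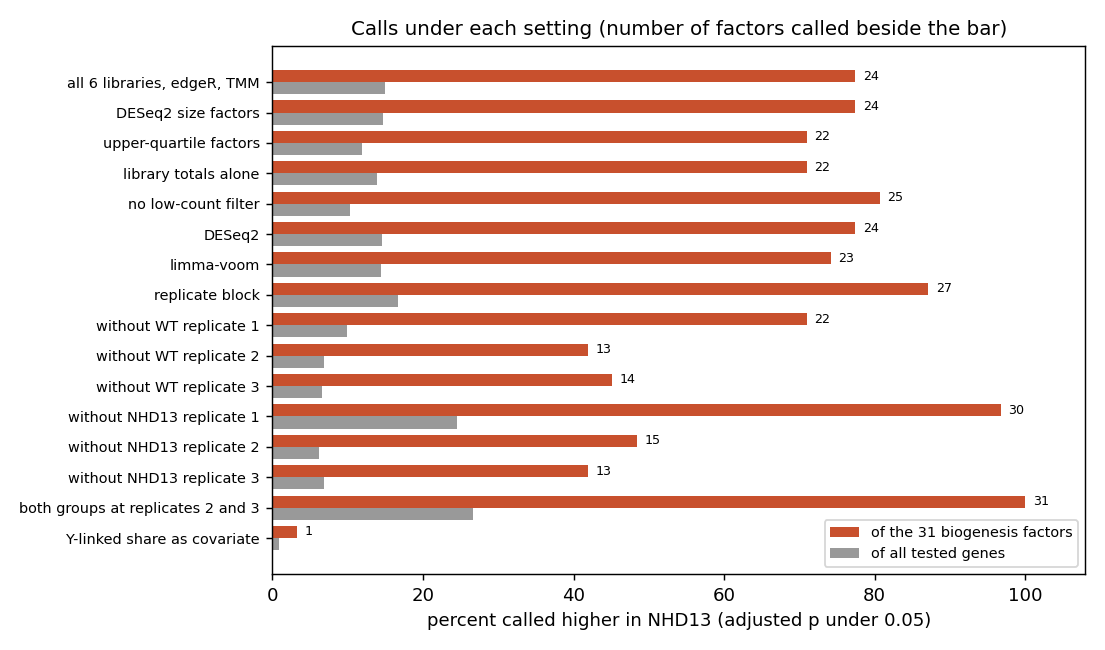
Percent of the 31 factors (red) and of all tested genes (grey) called higher in NHD13 at an adjusted p under 0.05 (x axis) under each setting (rows), with the number of factors beside the red bar. The factors range from 13 to 30 called when 1 library is left out and drop to 1 when the Y-linked share is in the fit, and in each setting their percentage is above that of all genes.

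Both RNA polymerase I subunits rose. Polr1a encodes the largest subunit of the enzyme and Polr1b the second largest, and together they form its catalytic center. Polr1b (mm10 chromosome 2, 129100995 to 129126594) was at 77.9, 66.7 and 74.8 CPM in WT and at 98.9, 100.3 and 110.6 CPM in NHD13. The lowest NHD13 library was thus 1.27-fold above the highest WT library, and the fitted fold was 1.41 (log2 0.50, SE 0.08, adjusted p = 0.00395, edgeR). Polr1a (chromosome 6, 71909053 to 71984935) was at 113.4, 102.7 and 109.3 CPM in WT and at 132.9, 146.4 and 156.5 CPM in NHD13, and here too the groups were apart (1.34-fold, adjusted p = 0.00613, edgeR). Per kilobase of coding sequence the subunits had like levels in WT, 21.5 CPM for Polr1b and 21.1 CPM for Polr1a, as they did in NHD13 with 30.3 and 28.2 CPM. Coding sequence makes up 3405 of 3998 transcript bases for Polr1b but 5151 of 9216 for Polr1a. The likeness thus depends on dividing by coding length, and over transcript length Polr1a would be lower.

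All 3 box C/D proteins rose, with close folds of 1.22 to 1.23. Fibrillarin (Fbl) is the methyltransferase of the box C/D snoRNP, and Nop56 and Nop58 are the paired scaffold proteins that hold it on the guide RNA. Fbl (chromosome 7, 28169710 to 28179269) was nearly constant in WT at 215.3, 215.7 and 214.6 CPM, and reached 236.7, 274.8 and 279.0 CPM in NHD13 (adjusted p = 0.0191, edgeR). Nop56 was at 287.5, 275.6 and 298.6 CPM in WT and at 303.2, 361.9 and 388.1 CPM in NHD13, where replicate 1 lay just above the WT range. Nop58 was at 273.3, 240.0 and 264.1 CPM in WT and at 288.7, 319.6 and 337.2 CPM in NHD13. The log2 ratio of Nop56 to Nop58 was 0.15 ± 0.067 in WT and 0.15 ± 0.07 in NHD13 (SD, n = 3 each). The calls of Fbl and Nop56 were lost when any library but NHD13 replicate 1 was left out, with adjusted p up to 0.0846 and 0.164 (edgeR). That of Nop58 was lost on leaving out replicate 2 or 3 of either group, with adjusted p up to 0.113.

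Of the box H/ACA group 2 of 4 rose. Nolc1, a phosphoprotein that shuttles between nucleolus and Cajal body and chaperones snoRNPs, changed most. It was at 252.6, 208.8 and 229.3 CPM in WT and at 300.7, 347.0 and 362.2 CPM in NHD13 (chromosome 19, 46075863 to 46085530), a 1.46-fold rise (log2 0.55, SE 0.09, adjusted p = 0.00454, edgeR). Gar1, one of the H/ACA core proteins, rose 1.32-fold from 46.5 CPM ± 4.22 to 61.5 CPM ± 5.46 (n = 3 each), and its call was lost without WT replicate 2, NHD13 replicate 2 or NHD13 replicate 3 (adjusted p up to 0.0694, edgeR). Dkc1 encodes dyskerin, the pseudouridine synthase, which is mutated in dyskeratosis congenita, an inherited marrow failure. It was at 224.3, 207.1 and 224.0 CPM in WT and at 239.2, 248.7 and 260.2 CPM in NHD13. The groups were apart, but the 1.14-fold difference did not pass (adjusted p = 0.051, edgeR). Nhp2, the third core protein of this set, went from 93.1 CPM ± 5.35 to 111 CPM ± 10.8 (1.19-fold, n = 3 each) and did not pass either (adjusted p = 0.0543, edgeR). Both passed without NHD13 replicate 1, at adjusted p of 0.00638 for Dkc1 and 0.00113 for Nhp2 (edgeR), a fit that called 24.5% of all tested genes higher. With any other library left out neither passed, with adjusted p up to 0.21 for Dkc1 and 0.203 for Nhp2.

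Among the multifunctional nucleolar proteins 5 of 6 rose. Ddx21, a helicase that acts in ribosomal RNA transcription and processing, had the largest change of the group, from 382.4, 321.1 and 353.3 CPM in WT to 475.4, 520.6 and 538.0 CPM in NHD13 (chromosome 10, 62580251 to 62602281). This was 1.45-fold (log2 0.54, SE 0.08, adjusted p = 0.00281, edgeR), with a clear gap between groups. Mybbp1a, a nucleolar regulator of transcription, was at 373.0, 318.7 and 329.2 CPM in WT and at 427.8, 443.0 and 480.1 CPM in NHD13 (1.32-fold, adjusted p = 0.00709, edgeR). Gnl3 encodes nucleostemin, a GTP-binding protein named for its abundance in stem cells. It varied widely within WT (192.3, 148.2 and 180.0 CPM) and stood at 206.2, 229.2 and 260.3 CPM in NHD13 (1.34-fold). Its call was lost on leaving out replicate 2 or 3 of either group (adjusted p up to 0.0939, edgeR).

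Nucleolin (Ncl) and nucleophosmin (Npm1) are abundant nucleolar RNA-binding and histone-binding proteins, and NPM1 is often mutated in human acute myeloid leukaemia. Per kilobase of coding sequence Npm1 had the highest level of the 31 in WT at 1686 CPM, before Ncl at 737 CPM and Pa2g4 at 411 CPM. Coding sequence makes up 2121 of 8202 transcript bases for Ncl and 1182 of 2432 for Pa2g4, so the order of Ncl and Pa2g4 depends on the length used. Ncl (chromosome 1, 86344719 to 86359400) was at 1587, 1504 and 1600 CPM in WT and at 1820, 2068 and 2144 CPM in NHD13, so the groups were apart (1.29-fold, adjusted p = 0.00819, edgeR). Npm1 (chromosome 11, 33152287 to 33163206) was at 1467, 1426 and 1538 CPM in WT and at 1541, 1871 and 1881 CPM in NHD13. NHD13 replicate 1 barely exceeded the highest WT library, and the 1.19-fold rise lay at the threshold (adjusted p = 0.0497, edgeR). The call of Npm1 was lost when any library but NHD13 replicate 1 was left out (adjusted p up to 0.189). Pa2g4, which encodes the growth-regulating RNA-binding protein Ebp1, had the smallest change of the 31. It was at 518.9, 458.0 and 481.8 CPM in WT and at 528.8, 544.0 and 578.4 CPM in NHD13 (1.13-fold, adjusted p = 0.0788, edgeR). Without NHD13 replicate 1 it passed (adjusted p = 0.0147), and with any other library left out it did not (adjusted p up to 0.274, edgeR).

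All 7 small subunit factors rose, and Rrp12 had both the largest change and the lowest p-value of the 31. Rrp12 is a HEAT-repeat protein known from yeast for the maturation and export of ribosomal precursors. It was at 54.7, 54.3 and 55.3 CPM in WT and at 80.0, 85 and 83.6 CPM in NHD13 (chromosome 19, 41862851 to 41896173). Both groups were tight, and the lowest NHD13 library was 1.45-fold above the highest WT library. The fitted rise was 1.51-fold (log2 0.60, SE 0.06, adjusted p = 0.000658, edgeR). Rrp9, a protein of the U3 snoRNP that guides the early cleavages, was at 35.7, 35.9 and 34.7 CPM in WT and at 46.7, 49.7 and 50 CPM in NHD13 (1.38-fold, adjusted p = 0.00291, edgeR). Nop14, a processome component, was at 64.3, 59.2 and 62.0 CPM in WT and at 76.2, 88.2 and 91.2 CPM in NHD13 (1.38-fold, adjusted p = 0.00561, edgeR). In all 3 genes the lowest NHD13 library was well above the highest WT library.

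The other 4 small subunit factors rose 1.24-fold to 1.27-fold. Utp20 and Heatr1 are large scaffold proteins of the processome, Wdr43 is a WD-repeat component of it, and Tsr1 is a GTPase-like protein that stays with the precursor into the cytoplasm. Utp20 went from 107 CPM ± 10.5 to 136 CPM ± 8.0, Heatr1 from 150 CPM ± 13.9 to 185 CPM ± 8.27, Wdr43 from 159 CPM ± 11.9 to 198 CPM ± 7.12 and Tsr1 from 66.5 CPM ± 7.93 to 84.1 CPM ± 4.83 (SD, n = 3 each). In these 4 the lowest NHD13 library was replicate 2, not replicate 1. Their calls were lost without WT replicate 2, WT replicate 3 or NHD13 replicate 3, and those of Heatr1 and Tsr1 also without NHD13 replicate 2, with adjusted p up to 0.0639 for Wdr43, 0.0807 for Utp20, 0.0808 for Heatr1 and 0.104 for Tsr1 (edgeR).

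Of 9 large subunit factors 5 rose. Nop2, a methyltransferase that modifies the large ribosomal RNA, was at 97.9, 94.3 and 94.3 CPM in WT and at 129.1, 132.8 and 136.6 CPM in NHD13 (chromosome 6, 125131909 to 125144753). Both groups were tight, and the rise was 1.39-fold (log2 0.48, SE 0.06, adjusted p = 0.00139, edgeR). Ppan, the mouse relative of a yeast factor for early large subunit assembly, was at 93.6, 87.9 and 90.2 CPM in WT and at 108.2, 119.9 and 123.2 CPM in NHD13 (1.29-fold, adjusted p = 0.00706, edgeR). Nip7, a small protein of the same pathway, was at 73.9, 67.2 and 73.9 CPM in WT and at 88.7, 90.5 and 93.2 CPM in NHD13 (1.27-fold, adjusted p = 0.00779, edgeR). Wdr74 rose 1.28-fold from 46.7 CPM ± 4.17 to 59.96 CPM ± 3.99 (n = 3 each), and lost its call on leaving out replicate 2 or 3 of either group (adjusted p up to 0.0752, edgeR).

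Of the 3 members of the PeBoW complex, Bop1 rose, and Pes1 and Wdr12 did not pass the test. Bop1 (chromosome 15, 76452989 to 76477277) was at 88.5, 83.6 and 87.7 CPM in WT and at 111.9, 115.0 and 116.7 CPM in NHD13, with a wide gap between groups (1.32-fold, log2 0.40, SE 0.06, adjusted p = 0.00296, edgeR). Pes1 was at 162.0, 161.8 and 158.5 CPM in WT and at 172.9, 193.1 and 181.4 CPM in NHD13, and Wdr12 at 103.5, 95 and 96.4 CPM and at 107.6, 114.3 and 117.0 CPM. The groups were apart for both, but neither the 1.14-fold difference of Pes1 (adjusted p = 0.0576) nor the 1.15-fold difference of Wdr12 (adjusted p = 0.0525) passed the edgeR test. The log2 ratio of Bop1 to Pes1 was -0.87, -0.95 and -0.85 in WT and -0.63, -0.75 and -0.64 in NHD13, and that of Bop1 to Wdr12 was -0.23, -0.18 and -0.14 in WT and 0.06, 0.01 and 0.00 in NHD13. Neither ratio overlapped between groups. These pairs were picked after their values were seen, and the ratios were not tested. The remaining large subunit factors, Nop16 (1.18-fold, adjusted p = 0.0606) and Rrp1b (1.20-fold, adjusted p = 0.0689), did not pass the edgeR test. Rrp1b alone had overlapping groups, with 91.3, 76.7 and 78.2 CPM in WT and 107.1, 88.2 and 100.7 CPM in NHD13. Without NHD13 replicate 1, Pes1 (adjusted p = 0.00543), Wdr12 (0.00767) and Nop16 passed, and Nop16 passed also without WT replicate 1. In the other fits that leave out 1 library they did not pass. Adjusted p was then up to 0.264 for Pes1, 0.202 for Wdr12 and 0.204 for Nop16 (edgeR).

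**Figure D3:**
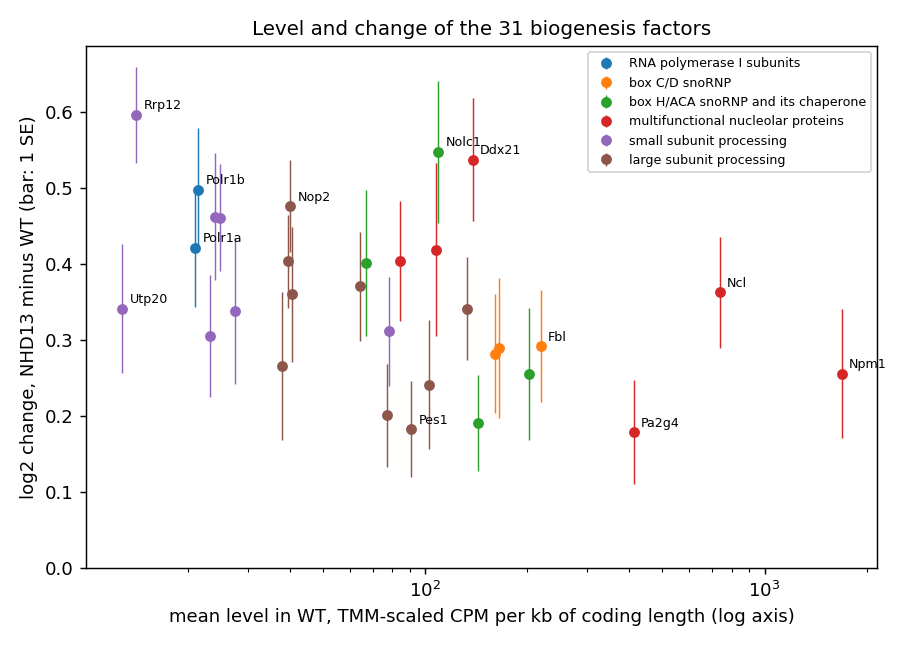
Log2 change of NHD13 over WT with 1 SE (y axis) against the mean WT level in TMM-scaled CPM per kilobase of coding length (x axis, log) for the 31 factors, colored by role. Every factor lies above 0, from 0.18 for Pa2g4 to 0.60 for Rrp12, and the most abundant, Npm1 at 1686 CPM per kilobase, is at 0.26.

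Other genes of the pathway moved the same way in smaller shares. Of 125 further ribosome biogenesis genes in 6 lists, all tested, 63 rose and 1 fell, and 116 had a positive log2 change. In the small subunit processome list 22 of 34 rose (median log2 change 0.30), among them Aatf, from 42.0 CPM ± 1.12 to 60.4 CPM ± 3.83 (1.44-fold, adjusted p = 0.00218, edgeR), and Pdcd11 (1.43-fold). Of the large subunit precursor factors 20 of 35 rose (median 0.27), among them the helicase gene Ddx51 (1.37-fold) and Mrto4 (1.46-fold). In the list of RNA polymerase I subunits and initiation factors 6 of 13 rose, among them the initiation factor gene Rrn3 (1.34-fold) and the subunit gene Cd3eap (1.26-fold).

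The single gene of these lists that fell was Znrd1 (named after its values were seen), which encodes a small zinc-ribbon subunit of RNA polymerase I. It was at 27.2, 24.5 and 24.9 CPM in WT and at 19.6, 22.2 and 19.2 CPM in NHD13, so that every NHD13 library lay below every WT library (log2 -0.33, SE 0.10, adjusted p = 0.0345, edgeR). Its call was lost on leaving out any WT library or NHD13 replicate 3, with adjusted p up to 0.115. Polr1a and Polr1b thus rose while another subunit of the same enzyme fell, a contrast that was not itself tested.

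The shares below can be read against the 15.0% of all tested genes called higher and the 15.3% called lower. Of the export and cytoplasmic maturation factors 5 of 18 rose (median 0.17), with Bysl, a factor of small subunit maturation, having the largest log2 change of the 125 genes, from 43.8 CPM ± 1.07 to 68.1 CPM ± 4.45 (1.56-fold, adjusted p = 0.000904, edgeR, n = 3 each). Lsg1, a GTPase of this list, lost its call without NHD13 replicate 2 (adjusted p = 0.0502). Of the snoRNP core and assembly factors 4 of 10 rose (median 0.25), among them the ATPase genes Ruvbl1 (1.30-fold) and Ruvbl2 (1.26-fold), which had the lowest p-values, and of the RNA exosome 6 of 15 (median 0.20), where the lowest p-values were those of the nuclease gene Dis3 (1.32-fold) and of Skiv2l2 (1.19-fold), whose call was kept only without NHD13 replicate 1 (adjusted p up to 0.113 in the other such fits). For comparison, 8 of 20 S-phase genes rose (median 0.25) and 2 of 20 G2-M genes (median 0.13), with 0 lower in either list by edgeR. The G2-M share of 10% was near that of all genes, while 17 of these 20 had a positive log2 change, as all 20 S-phase genes had. The differences between lists were not tested.

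**Figure D4:**
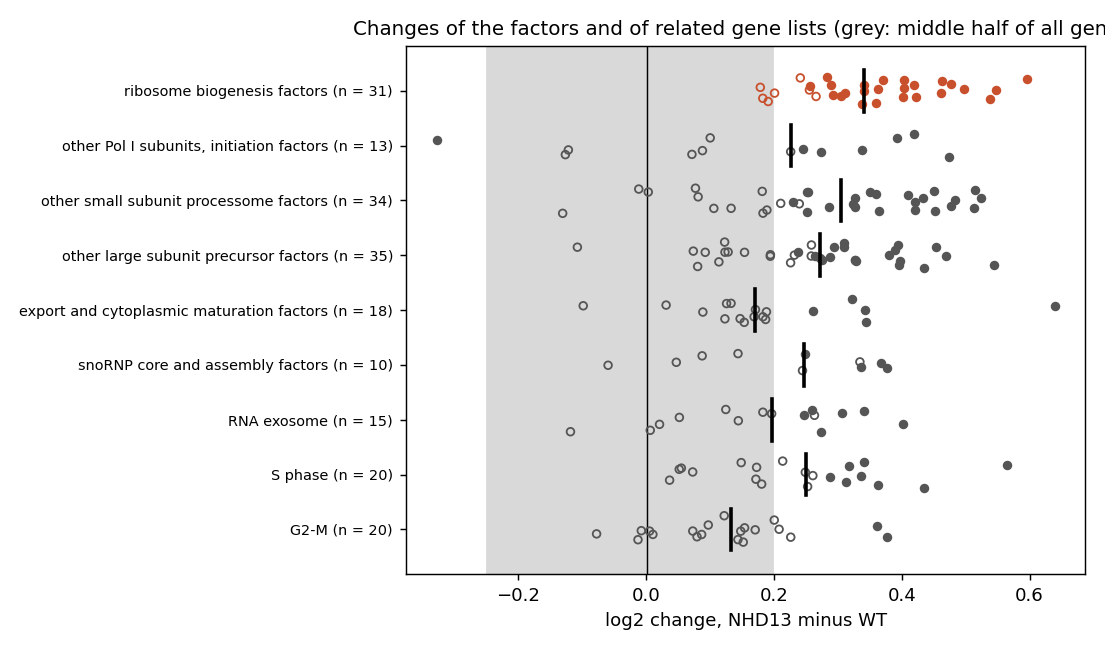
Log2 change of NHD13 over WT (x axis) for the 31 factors (red) and for related gene lists (grey), with filled points for genes past the threshold, open points for the rest, a black bar at each list's median, a vertical line at the median of all tested genes and a grey band from -0.25 to 0.20 for the middle 50% of them. The median of the 31 factors is 0.34, and those of the other lists run from 0.13 for G2-M to 0.30 for the small subunit processome.

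Markers of several cell types differed between the groups as well. Of 8 neutrophil markers 7 fell, and their sum was 32860, 50780 and 44130 CPM in WT and 22430, 31130 and 28120 CPM in NHD13, without overlap. Of 5 tested erythroid markers 3 rose, namely Klf1, Epor and Gata1. Klf1 was at 66.1, 68.5 and 72.0 CPM in WT and at 111.2, 184 and 177 CPM in NHD13, Epor at 30.8, 36.3 and 38.1 CPM and at 53.9, 101.1 and 95.6 CPM, and Gata1 at 54.5, 67.6 and 71.5 CPM and at 93.6, 167 and 170.2 CPM. For each of the 3 every NHD13 library lay above every WT library, with replicate 1 the lowest in NHD13. The sum of the 6 erythroid markers taken from the table was 721, 758 and 804 CPM in WT and 785, 1325 and 1297 CPM in NHD13, and most of it was Car1, which did not pass the test and was at 560.1, 573 and 612 CPM in WT and at 518, 852 and 832 CPM in NHD13. The beta globin gene Hbb-b1 had 4 counts over WT and 2 over NHD13. Stem cell markers summed to 279 to 301 CPM in WT and 240 to 261 CPM in NHD13, without overlap, and of 5 tested Mecom rose 6.64-fold while Hlf (log2 -1.96) and Ly6a (log2 -0.65) fell. Most of that sum was Kit, at a mean of 254 CPM in WT and 227 CPM in NHD13, which did not pass (adjusted p = 0.0884, edgeR). Slamf1 did not pass either (2.23-fold, adjusted p = 0.0618, edgeR). Megakaryocyte markers summed to 50.5 to 61.9 CPM and 38.4 to 52.7 CPM, and of 4 tested Pf4 rose 2.18-fold and Itga2b fell (log2 -1.05). The 4 mast cell and basophil markers and the 4 multipotent progenitor markers fell, from 193 to 479 CPM to 12.1 to 25.6 CPM and from 311 to 343 CPM to 78.7 to 132 CPM. Of 5 granulocyte-monocyte progenitor markers 0 passed by edgeR (2 at an unadjusted p under 0.05), with sums of 12390 to 16100 CPM in WT and of 15990, 8428 and 8638 CPM in NHD13. B cell markers summed to 1.5 to 4.88 CPM in WT and 0.75 to 1.95 CPM in NHD13, and T and NK cell markers to 2.45 to 5.21 CPM and 1.46 to 2.03 CPM. Within this last list the NK cell genes Ncr1 (log2 -4.88) and Klrd1 (log2 -1.73) fell. The T cell genes Cd3e and Cd3g were too low to be tested, with 12 and 14 counts over WT and 19 and 34 over NHD13. The part of these cell types in the change of the ribosome biogenesis factors was not tested.

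**Figure D5:**
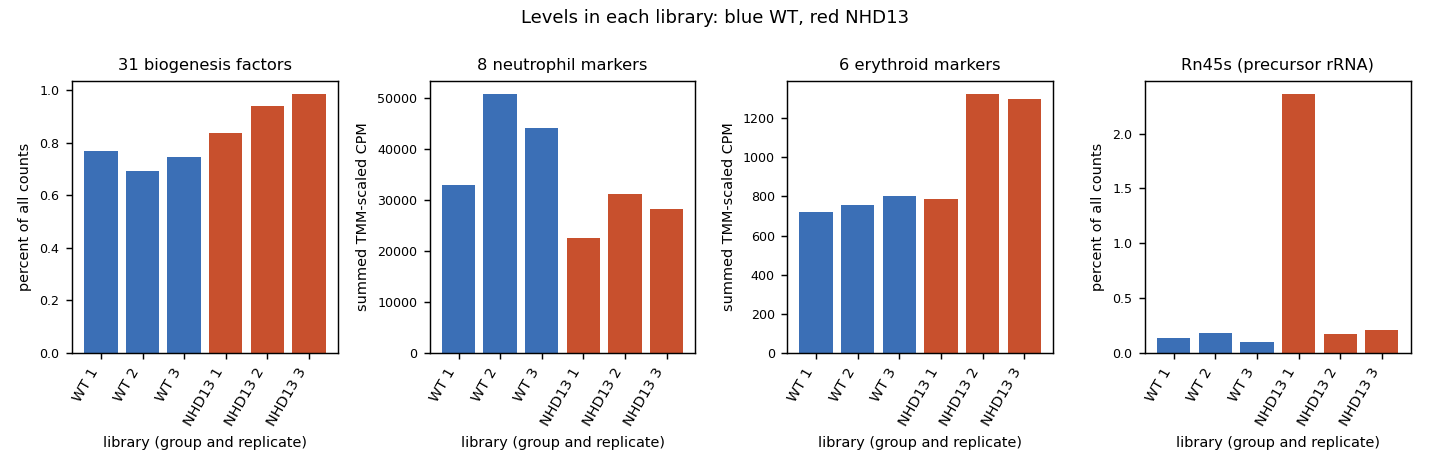
Share of all counts held by the 31 factors, summed TMM-scaled CPM of neutrophil and of erythroid markers, and share of all counts held by Rn45s (y axes, from 0), with 1 bar per library, blue for WT and red for NHD13. The factors are at 0.692% to 0.768% in WT and 0.839% to 0.987% in NHD13, while the erythroid sum, most of it Car1, is 785 CPM in NHD13 replicate 1 and 1325 and 1297 CPM in the other NHD13 libraries, and the Rn45s share of NHD13 replicate 1 is 2.36%.

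Several factor genes share a feature that the selection did not use: 8 of 31 hold genes for small nucleolar RNAs inside their own span and on their strand (GENCODE vM21, mm10), 23 such RNAs in all. They are Nop56 with 5, Nop58 with 4, Ncl, Gnl3 and Wdr43 with 3 each, Tsr1 and Ppan with 2 each and Dkc1 with 1. This was 25.8% of the factors, against 1.77% of 11269 tested genes with a position. Of the 8 host genes 7 rose with a median log2 change of 0.32, and of the other 23 factors 17 rose with a median of 0.36. The factors lie on 16 chromosomes. Exons of 15 overlap those of a gene on the other strand, 11 of them a gene with its own row in the table, and reads of such pairs cannot be told apart, since the sources do not say whether counting used strand. The 11 are Nop56, Dkc1, Nhp2, Gnl3, Mybbp1a, Heatr1, Rrp9, Tsr1, Rrp1b, Wdr12 and Bop1. Coding sequences of Fbl, Nop56, Npm1, Ddx21, Wdr12 and Pes1 match a transcript of another gene over at least 200 bases at 95% identity or more, and the counts of these 6 are uncertain to that extent.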

How the data were processed

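The deposited values are raw read counts per gene, whole numbers with unequal library totals. Bowtie2 2.2.1 and HTSeq 0.5.4p3 are named with build mm10, per the submitters' processing notes. The sources used here do not state the annotation, strand use or read filters. Columns were matched to samples by group letter and replicate number.

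The fit over the whole table used edgeR 4.0.16 in R 4.3.3: filterByExpr (minimum count 10, 12013 of 17523 entries kept), TMM scaling and the robust quasi-likelihood F test with group as its only term, two-sided, with Benjamini-Hochberg adjustment over all tested genes and a threshold of 0.05. The SE was derived as log2 change over root F. Fold changes are those of the fit, and means are given ± SD. The procedure was tested on simulated data. Alternatives used DESeq2 1.42.0, limma 3.58.1 (voom), other scalings, no filter, a replicate term, a covariate and fits without single libraries. No pair of replicates differed by as little as sampling noise (chi-square per degree of freedom 3.23 to 25.6), and all 6 libraries were kept apart. Where no read is seen, 3 counts, equal to 0.209 to 0.239 CPM, is the upper limit (counting error only).

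The 31 genes and the related lists were chosen with earlier results of these data known. Values in every library are given for the 12 factors with the lowest p, the polymerase subunits, the 3 most abundant per coding length and the 3 smallest changes, and for others where a comparison needed them, chosen after their values were seen. Of each related ribosome list 2 genes with the lowest p are named, fewer than the 3 the rule allows. Levels per kilobase use the longest coding sequence in GENCODE vM21, and untranslated parts of the transcripts are not in the divisor. Promoters are from RefSeq (GRCm38.p6), 1 per gene at its most upstream start. Some marker genes are not reported here and were left out of their lists.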

Additional observations from a re-analysis of the deposited data

How the results depend on the processing

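All 31 factors kept a positive log2 change under each of the 16 alternatives run. For the 30 factors with groups apart, that sign was largely fixed in advance in fits that left out or rescaled the same libraries. The factors called higher numbered 24 with DESeq2 size factors, 24 by DESeq2, 22 with upper-quartile factors, 22 with library totals alone, 25 without the low-count filter, 23 by limma-voom and 24 with Rn45s left out, a setting chosen after seeing the data. Of all tested genes these settings called 10.3% (without the filter) to 15% (with Rn45s left out) higher. The factors called higher ranged from 13 to 30 when 1 library was left out, and no factor was called lower (range 0 to 0). Over all genes these fits called 760 to 3012 higher and 957 to 2966 lower, and the median log2 change of the factors was 0.29 to 0.39. With replicates 2 and 3 of both groups alone it was 0.43, and 3244 genes were higher and 3245 lower. With the Y-linked share in the fit 1 factor, 111 genes higher and 175 lower remained past the threshold, and the median SE of the factors went from 0.0786 to 0.132. Upper-quartile factors moved the median of all genes to -0.04 and gave 1427 higher and 2132 lower genes, and the median of the factors was then 0.30. Nop56 and Npm1 lost their calls with upper-quartile factors and with library totals alone, and Npm1 also by limma-voom. The cause was not tested.

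Replicate numbers are not stated to pair libraries. Deviations of same-numbered libraries from their group means correlated at 0.25, 0.06 and 0.18 (over genes), and those of unlike numbers at -0.24 to 0.15. NHD13 replicates 1 and 3 were closest to the WT library of the same number, and NHD13 replicate 2 was closer to WT replicate 3 (0.15). These values do not settle whether the numbers mark pairs, and the main fit did not use them as such. With the replicate block 27 factors were called higher, and 2007 genes were higher and 2233 lower. With 3 libraries per group, changes of this size lie near what the spread lets pass, so a missed threshold does not show that a factor was the same in both groups.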
